A study of Homo sapiens with 6 samples.

Results

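Focal adhesions are the sites where integrin receptors, which span the cell membrane and hold the extracellular matrix outside the cell, are tied to the actin cytoskeleton inside it. Talin and kindlin bind the cytoplasmic tails of integrins and switch the receptors on, vinculin and alpha-actinin join talin to actin filaments, and scaffolds such as paxillin, FAK and p130Cas bring signalling enzymes to the site. In basal breast epithelial cells these proteins take part in spreading, in migration and in sensing the stiffness of the matrix.

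The genes described here code for the adaptors and actin linkers on the cytoplasmic side of this complex, without the integrin subunits. They were chosen by gene symbol, with earlier results of these data known. All 41 of them were found among the 58676 genes of the deposited table. The cells were DCIS.COM, an established human line of basal ductal carcinoma in situ, grown in DMEM/F12 with horse serum and antibiotic. NS control cells carried a PLKO.1 lentiviral vector with a non-silencing shRNA, and BCL9 KD cells carried a lentiviral vector with an shRNA against BCL9, a transcriptional co-activator known from the Wnt pathway. RNA was sequenced from 3 flasks of each, so both groups had been transduced with virus, and the comparison rests on a single cell line and a single knockdown. It asks which of these genes differed in RNA level after the knockdown. The sample titles number 3 replicates in each group and do not call them biological. The methods of the study name fewer biological replicates per condition, and the titles were followed. The p-values measure the spread between flasks of these transduced cells.

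The table holds FPKM, a fragment count scaled for gene length and for the depth of the sample, which allows levels to be compared between genes. The reads counted on genes were 15222452 to 22712638 in NS control and 15665714 to 26949026 in BCL9 KD samples. BCL9 itself had 6.25, 6.24 and 5.34 FPKM in the NS control samples and 2.86, 2.78 and 2.59 FPKM in the BCL9 KD samples, so the groups did not overlap (log2 fold change −0.99, standard error 0.0933, limma adjusted p = 0.00773). Of 9 basal epithelial markers such as KRT5, all were expressed and 0 passed the test with limma (2 had an unadjusted p under 0.05), and their summed FPKM was 1300 to 1480 in NS control and 1330 to 1390 in BCL9 KD samples. Of 4 luminal markers, ESR1 stayed at or below 0.0980 FPKM and PGR was at 0, while GATA3 and FOXA1 were expressed, and the list summed to 10.7 to 12.3 FPKM in NS control and 10.4 to 11.5 FPKM in BCL9 KD samples. The 7 fibroblast markers summed to 0.702 to 0.732 FPKM in NS control and 0.768 to 0.905 FPKM in BCL9 KD samples, with COL3A1 at 0 throughout. The 6 immune and endothelial markers summed to 1.75 to 2.34 and 3.16 to 3.95 FPKM, nearly all of it PECAM1, which was higher in BCL9 KD cells (log2 fold change 0.61, limma adjusted p = 0.0477, but 0.0236 to 0.186 over 18 alternatives, of which 7 kept the call), while PTPRC and CD3E had at most 1 read in any sample. The part of PECAM1 in the results below was not tested.

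Vinculin, both talins and migfilin had less RNA in BCL9 KD cells, and none of the 37 tested adhesion genes passed the test with a higher level. Of the 41 genes, 37 had a mean of at least 0.5 FPKM over the 6 samples and were tested. At a limma adjusted p under 0.05, 4 of the 37 fell (VCL, TLN1, TLN2 and FBLIM1) and 0 rose, with log2 fold changes between −0.65 and −0.43. Over all 13745 genes tested, 5.87% passed the threshold in either direction, with 2.91% lower and 2.96% higher in BCL9 KD cells. An unadjusted p under 0.05 was reached by 10 of the 37 genes, all of them lower, against 27.5% of all genes in either direction and 13.0% with lower values. The 3 BCL9 KD values lay wholly outside the range of the 3 NS control values for 12 of the 37 genes, 10 lower and 2 higher, against 34.2% of all genes, and 16.4% of all genes were separate with lower values. In bulk RNA, fewer cells of a kind and less RNA per cell cannot be told apart.

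The estimates of the 37 genes lay mostly on the same side of 0. The log2 fold change was below 0 for 32 of the 37 genes (86.5%), as compared with 6124 of the 13745 genes tested (44.6%). Its median was −0.11 over the 37 genes, with a range of −0.65 to 0.21, whereas the median of all genes was 0.04 with quartiles at −0.15 and 0.25. These shares and medians describe the list, which was chosen with earlier results of these data known, without a test of the list as a whole. The 33 genes that did not pass cannot be taken as unchanged, and their 95% intervals are drawn in the plot of changes by role.

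**Figure D1:**
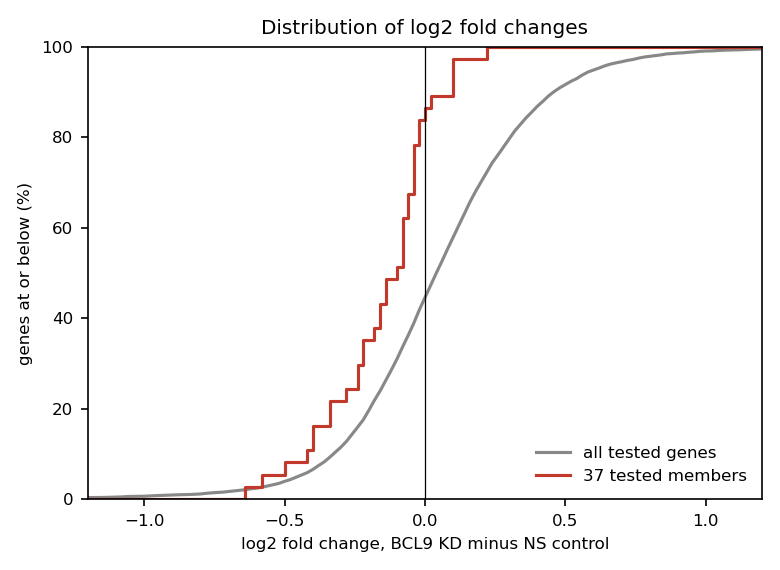
Share of genes (vertical axis, in percent) at or below each log2 fold change of BCL9 KD minus NS control (horizontal axis), for all 13745 tested genes in grey and the 37 tested adhesion genes in red. The red curve has reached 86.5% at a log2 fold change of 0, where the grey curve stands at 44.6%, and it ends at 0.21.

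**Figure D2:**
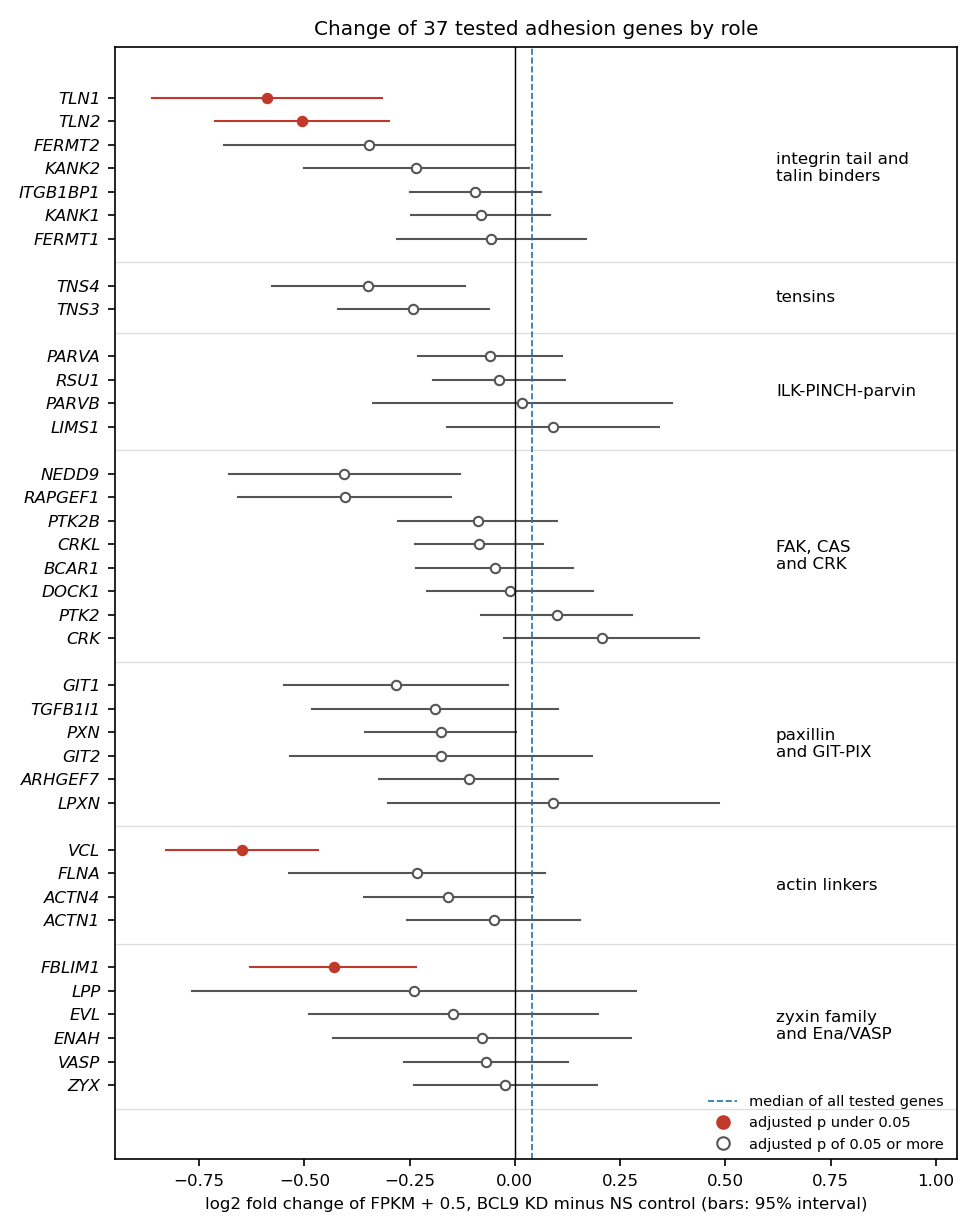
Log2 fold change of FPKM + 0.5, BCL9 KD minus NS control, for each of the 37 tested genes grouped by role, with bars for the 95% interval. Filled red points passed a limma adjusted p of 0.05, open points did not, and the dashed line is the median of all tested genes (0.04).

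The proteins that bind integrin tails or talin stand first in the chain from receptor to actin, and both talin genes fell in BCL9 KD cells. All 7 tested genes of this group had an estimate below 0, 2 of them passing the test, with a median log2 fold change of −0.23. TLN1 encodes talin-1, the widely expressed form that links integrin tails to actin and to vinculin. It lies on chromosome 9 of hg38 from 35696948 to 35732395 on the minus strand. Its level was 64.9, 56.5 and 48.7 FPKM in NS control and 40.5, 35.4 and 36.2 FPKM in BCL9 KD samples. The lowest control flask was thus above the highest knockdown flask, and the BCL9 KD mean was 65.9% of the NS control mean (56.7 ± 8.12 against 37.4 ± 2.74 FPKM, SD, n = 3 each). The log2 fold change was −0.59, with a 95% interval of −0.86 to −0.32 (limma adjusted p = 0.0387).

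TLN2 encodes talin-2, a related form of the same protein, and was the less abundant of the talins. It lies on chromosome 15 from 62390526 to 62844631 on the plus strand. Its level was 12.4, 12.7 and 11.5 FPKM in NS control and 9.33, 7.96 and 8.08 FPKM in BCL9 KD samples. The groups were again separate, and the mean fell to 69.3% (12.2 ± 0.604 against 8.46 ± 0.760 FPKM, SD, n = 3 each). The log2 fold change was −0.51, with a 95% interval of −0.71 to −0.30 (limma adjusted p = 0.0305). For each of these genes a two-sided exact permutation test over the flasks gave p = 0.1, which is the smallest p that 3 samples against 3 allow.

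The kindlins, which bind integrin tails beside talin, did not pass. FERMT2, kindlin-2, had 4.77, 6.73 and 6.92 FPKM in NS control and 4.27, 5.00 and 4.74 FPKM in BCL9 KD samples. Its groups overlapped because the first control flask was lower than the other two (log2 fold change −0.35, limma adjusted p = 0.181). FERMT1, kindlin-1, which is the epithelial form, was expressed at 11.6 to 14.2 FPKM in NS control and 12.1 to 13.2 FPKM in BCL9 KD samples (log2 fold change −0.06). KANK1 and KANK2 bind talin at the rim of adhesions and connect it to microtubules, and their log2 fold changes were −0.08 and −0.23. ITGB1BP1, also called ICAP-1, competes with talin for the beta-1 integrin tail and had a log2 fold change of −0.09. Its values did not overlap between the groups (15.3 to 16.0 against 14.1 to 15.1 FPKM), and 33.2% of its exonic bases are shared with ASAP2, so its reads cannot be assigned with certainty.

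The tensins bind integrin tails in more mature adhesions and connect them to actin. TNS4, a short tensin without the actin-binding part, had 33.0, 29.1 and 26.5 FPKM in NS control and 24.5, 22.8 and 21.7 FPKM in BCL9 KD samples. The groups did not overlap, and the log2 fold change was −0.35 with a 95% interval of −0.58 to −0.12 (limma adjusted p = 0.0773). TNS3 had 15.9, 15.8 and 14.1 FPKM in NS control and 13.3, 12.8 and 12.4 FPKM in BCL9 KD samples (log2 fold change −0.24, limma adjusted p = 0.1). TNS1 had a mean below the limit for testing, but all its values were separate between the groups. It had 0.390, 0.418 and 0.320 FPKM in NS control and 0.174, 0.183 and 0.143 FPKM in BCL9 KD samples, resting on 76 to 138 and 35 to 77 reads. When every gene above 0 in any sample was tested, its log2 fold change was −0.39 (limma adjusted p = 0.168). Each of these 3 tensins had all its higher values in NS control flasks, without passing the test. TNS2, a further tensin that is not among the 41 genes, overlapped between the groups (1.73 to 1.91 against 1.64 to 1.87 FPKM).

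The ILK, PINCH and parvin proteins form a complex that couples beta-integrin tails to actin, and its estimates had the median closest to 0 of all role groups. The estimates of the 4 tested genes lay between −0.06 and 0.09 on the log2 scale, 2 below and 2 above 0, with a median of −0.01 and no p under 0.05. RSU1, which binds PINCH, was the most abundant of them. It had 11.9, 12.8 and 12.8 FPKM in NS control and 12.2, 12.04 and 12.2 FPKM in BCL9 KD samples, and the 95% interval of its log2 fold change was −0.19 to 0.12. PARVA and PARVB, the parvins that bind ILK and actin, had log2 fold changes of −0.06 and 0.02. LIMS1, which encodes PINCH1, had 5.78, 7.37 and 7.37 FPKM in NS control and 7.43, 7.04 and 7.35 FPKM in BCL9 KD samples (log2 fold change 0.09). The related copies LIMS3 and LIMS3L were listed at 0 in every sample.

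ILK itself, the scaffold at the centre of this complex, was listed at only 0.113 to 0.126 FPKM in NS control and 0.0746 to 0.146 FPKM in BCL9 KD samples, on 6 to 10 reads. Of the exonic bases of ILK, 78.5% are shared with exons of other genes and 68.1% with TAF10 on the opposite strand. TAF10, a subunit of a general transcription factor, was also listed low, at 0.701 FPKM in NS control and 0.539 FPKM in BCL9 KD cells. How reads on bases shared by genes were counted is not given in the sources used here, and the part of this overlap in the level of ILK was not tested. LIMS2, PINCH2, had 0 to 2 reads in any sample.

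FAK with its CAS and CRK partners turns integrin binding into signals for migration. None of the 8 genes of this module passed the limma test (2 had an unadjusted p under 0.05), and the module held both the lowest estimates outside the called genes and the highest one. RAPGEF1 encodes the exchange factor that CRK carries to RAP1. It had 14.9, 13.2 and 11.4 FPKM in NS control and 10.4, 9.36 and 9.55 FPKM in BCL9 KD samples, with a log2 fold change of −0.40 and a 95% interval of −0.66 to −0.15 (limma adjusted p = 0.0698). NEDD9, also called HEF1, is a CAS scaffold that FAK and SRC phosphorylate. It had 2.22, 2.40 and 1.98 FPKM in NS control and 1.55, 1.37 and 1.69 FPKM in BCL9 KD samples, with a log2 fold change of −0.41 and a 95% interval of −0.68 to −0.13 (limma adjusted p = 0.0825). The groups were separate for both genes.

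CRK, an adaptor that binds phosphorylated CAS and paxillin, had the highest estimate of the 37 genes. It had 20.9, 26.4 and 24.9 FPKM in NS control and 26.6, 28.3 and 28.1 FPKM in BCL9 KD samples. The groups were separate by a narrow margin, and the 95% interval of the log2 fold change of 0.21 was −0.03 to 0.44 (limma adjusted p = 0.222). PTK2, which encodes FAK, had 6.03, 6.80 and 6.60 FPKM in NS control and 6.94, 7.09 and 6.87 FPKM in BCL9 KD samples (log2 fold change 0.10, limma adjusted p = 0.421). PTK2B, the related kinase PYK2, BCAR1, which is p130Cas, CRKL and DOCK1, an exchange factor for RAC, had log2 fold changes between −0.09 and −0.01.

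Paxillin is the scaffold that binds FAK and vinculin, and GIT and PIX proteins attach to it and control RAC and ARF. None of the 6 tested genes passed the limma test (1 had an unadjusted p under 0.05), and 5 of them had estimates below 0. PXN, the most abundant, had 32.9, 30.8 and 28.3 FPKM in NS control and 26.3, 27.2 and 27.7 FPKM in BCL9 KD samples. These groups did not overlap, and the log2 fold change was −0.18 with a 95% interval of −0.36 to 0.00 (limma adjusted p = 0.187). Other genes share 27.2% of its exonic bases, and PXN-AS1 alone shares 23.7%, so its reads are uncertain too. GIT1 had 23.4, 20.9 and 17.5 FPKM in NS control and 17.6, 16.5 and 16.0 FPKM in BCL9 KD samples, so the lowest control flask was just below the highest knockdown flask (log2 fold change −0.28, limma adjusted p = 0.161). The paxillin relatives TGFB1I1, known as HIC-5, and LPXN, leupaxin, had log2 fold changes of −0.19 and 0.09. GIT2 and ARHGEF7, which is beta-PIX, had −0.18 and −0.11, and GIT2 shares 25.5% of its exonic bases with other genes. ARHGEF6, alpha-PIX, was below the limit, with 0.0845 to 0.235 FPKM in NS control and 0.104 to 0.396 FPKM in BCL9 KD samples.

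The actin linkers held the largest log2 fold change of the 37 tested genes. VCL encodes vinculin, which binds talin under tension and fastens it to actin filaments. It lies on chromosome 10 from 73995193 to 74121363 on the plus strand. Its level was 48.9, 52.2 and 46.3 FPKM in NS control and 33.2, 30.03 and 30.3 FPKM in BCL9 KD samples, on 7043 to 11098 and 4737 to 8085 reads. The flasks of the groups were far apart, and the mean fell to 63.4% (49.1 ± 2.94 against 31.2 ± 1.78 FPKM, SD, n = 3 each). The log2 fold change was −0.65, with a standard error of 0.0764 and a 95% interval of −0.83 to −0.47 (limma adjusted p = 0.0122). Of the exonic bases of VCL, 11.1% are shared with AP3M1, an adaptor protein gene whose own log2 fold change was 0.03 (limma adjusted p = 0.823).

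The other actin linkers did not pass, although 2 of them are the most abundant genes of the list. ACTN4 encodes alpha-actinin-4, which cross-links actin filaments, and had 416, 388 and 348 FPKM in NS control and 352, 343 and 335 FPKM in BCL9 KD samples. The groups overlapped at the lowest control flask (log2 fold change −0.16, 95% interval −0.36 to 0.04), and 14.2% of its exonic bases are shared with other genes. ACTN1, alpha-actinin-1, had 174, 155 and 142 FPKM in NS control and 148, 154 and 151 FPKM in BCL9 KD samples, and its interval was −0.26 to 0.15. FLNA, the filamin that competes with talin for beta-integrin tails, was low at 1.58 to 2.05 FPKM in NS control and 1.31 to 1.66 FPKM in BCL9 KD samples (log2 fold change −0.23, limma adjusted p = 0.282).

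Zyxin, its LIM-domain relatives and the Ena/VASP proteins sit at the actin end of the adhesion, where filaments are lengthened and repaired. FBLIM1 encodes migfilin, which binds kindlin-2, filamin and VASP, and it was the gene of this group that passed. It lies on chromosome 1 from 15756607 to 15786594 on the plus strand. Its level was 18.9, 18.0 and 16.0 FPKM in NS control and 13.5, 12.7 and 12.6 FPKM in BCL9 KD samples, on 1147 to 2026 and 933 to 1615 reads. The flasks of the groups were separate, and the mean fell to 73.3%. The log2 fold change was −0.43, with a standard error of 0.0832 and a 95% interval of −0.63 to −0.23 (limma adjusted p = 0.0376).

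The remaining 5 genes of the group had estimates below 0 whose intervals included 0. VASP, which lengthens actin filaments, had 70.3, 61.3 and 59.9 FPKM in NS control and 57.9, 62.2 and 62.0 FPKM in BCL9 KD samples (95% interval of the log2 fold change −0.26 to 0.13). ZYX, zyxin, had 40.2, 34.2 and 32.9 FPKM in NS control and 33.4, 35.4 and 36.5 FPKM in BCL9 KD samples (interval −0.24 to 0.19). In both, the first control flask was the highest of the 6, and the groups overlapped. LPP, a zyxin relative, varied most between flasks, with 4.54, 6.84 and 7.89 FPKM in NS control and 6.66, 4.25 and 5.03 FPKM in BCL9 KD samples, so its interval of −0.77 to 0.29 covers changes as large as that of vinculin. ENAH and EVL, the other Ena/VASP proteins, had log2 fold changes of −0.08 and −0.15.

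**Figure D3:**
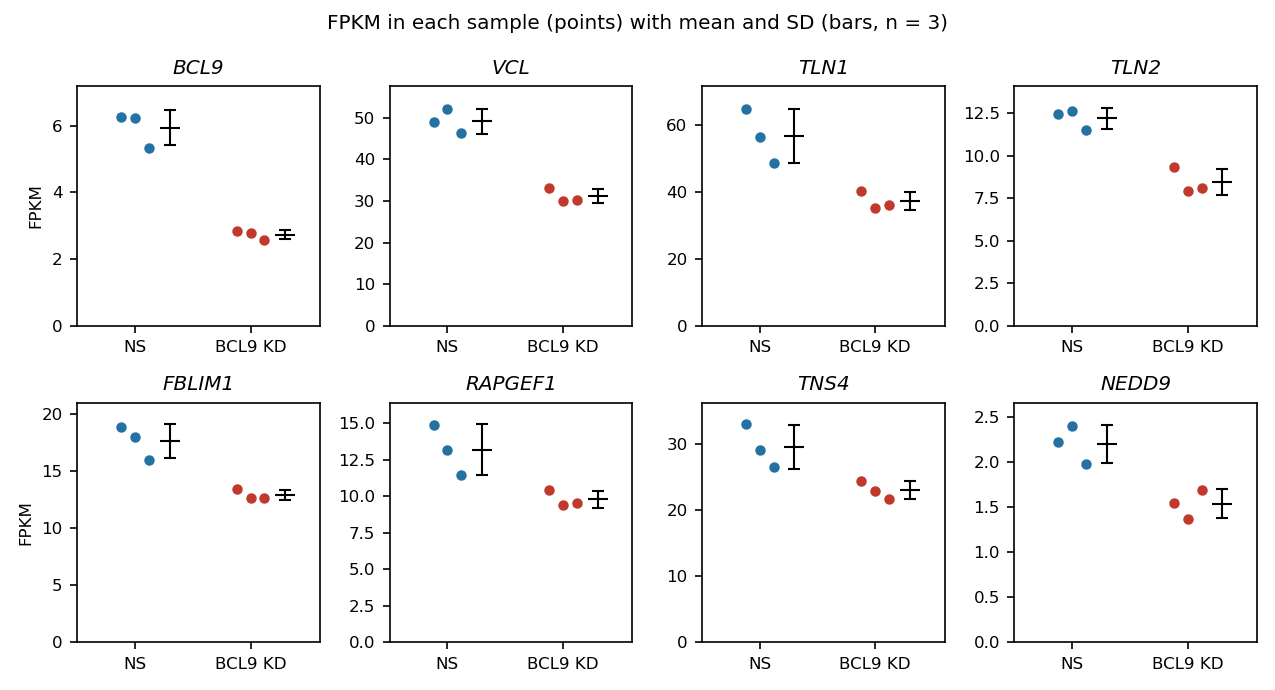
FPKM (vertical axis, from 0) in the 3 NS control samples (blue) and the 3 BCL9 KD samples (red) for BCL9, the 4 genes that passed the test and the 3 with the next lowest adjusted p, with the mean and SD beside the points. In every panel the 3 BCL9 KD points lie below the 3 NS control points.

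In 10 pairs of related genes, the share of one partner in the summed FPKM of the pair was compared between groups. NEDD9 made up 24.1% ± 1.16 of NEDD9 and BCAR1 in NS control and 18.7% ± 1.76 in BCL9 KD samples (SD, n = 3 each). CRK made up 48.5% ± 3.49 of CRK and CRKL in NS control and 53.6% ± 0.401 in BCL9 KD samples. PTK2 made up 57.8% ± 2.12 and 61.2% ± 1.24 of PTK2 and PTK2B, and ACTN4 made up 71.0% ± 0.434 and 69.4% ± 0.809 of the alpha-actinins. The groups were separate in these 4 pairs, each with a two-sided exact permutation p of 0.1, which 3 samples against 3 cannot go below, and 0.25 after Benjamini-Hochberg adjustment over the 10 pairs. Of all single genes tested, 34.2% were separate, and no such share was computed for other pairs. The ACTN4 margin was narrow (70.55% against 70.38%). The CRK and PTK2 shares were lowest in NS control replicate 1 (44.4% and 55.5%), the flask that stood apart by GC content, as described below. Those of NEDD9 and ACTN4 were not. The part of that flask in these shares was not tested. The share of TLN1 in the talins was 82.2% ± 1.58 in NS control and 81.6% ± 0.249 in BCL9 KD samples (two-sided exact permutation p = 0.8), and these groups overlapped.

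Promoter windows of 250 bases before to 50 after a RefSeq start on GRCh38.p14 were found for 36 of the 41 genes, 84 windows in all. They were searched on both strands for letters bound by factors of interest here. The STAT letters TTCNNNGAA were in 6 of the 84 windows (7.14%), as compared with 7.66% of all 35116 windows. The TCF/LEF letters CTTTGA were in 8 windows (9.52%, against 12.9% of all), the AP-1 letters TGANTCA in 8 (9.52%, against 7.71%) and the TEAD letters GGAATG in 11 (13.1%, against 14.03%). Counted per gene with a match in any window, the shares of the 36 genes were instead higher than those of all genes in the table, at 13.9% against 9.38% for STAT, 19.4% against 15.5% for TCF/LEF, 16.7% against 9.37% for AP-1 and 22.2% against 16.7% for TEAD. A gene with more windows has more chances of a match, so neither count shows that the list differs for these letters. STAT and TCF/LEF matches overlapped each other in windows of LIMS1 and ARHGEF7. The windows of TLN1 and TLN2 held none of the letters searched, which says nothing of the factors themselves. VCL had 1 match of the TEAD letters, at position −171 from the RefSeq start, which lies 2923 bases inside the span that the deposited table gives for the gene. It is shown in capitals in the 30 bases on chr10:73997933-73997962, plus strand.
VCL: gcccctcccttaGGAATGggggaggggcgg

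The CArG box, the site of serum response factor, which controls many actin cytoskeleton genes, was in 8 of the 84 windows (9.52%), as compared with 1.29% of all windows. These windows belong to 7 of the 36 genes (19.4%), as compared with 1.6% of all genes in the table. The same ITGB1BP1 box lies in overlapping windows and so counts more than once among the 8. Here too a gene with more windows has more chances of a match, and the shares carry no test. Of the 7 genes, FBLIM1 passed the test, and the log2 fold changes of the other 6, which did not pass, lay between −0.24 and −0.04. Estimates below 0 were common in the list, at 32 of the 37 tested genes. VCL, TLN1 and TLN2, which also passed, had no CArG box in their windows. The FBLIM1 box was not in every window of the gene. The start of its window lies 2188 bases inside the span that the deposited table gives. A relation of the box to the changes was not tested. The 30 bases around each match are given 5′ to 3′ on the strand of the gene with the CArG box in capitals, to show a feature that was not used to choose the genes. A match describes the sequence and does not show that the site is bound.
FBLIM1 on chr1:15758689-15758718, plus strand: ccgagcctcaCCTTTTATGGtaaagcggcg
ITGB1BP1 on chr2:9423703-9423732, minus strand: ccggggtcttCCTAAATTGGaagcacagcc
LPP on chr3:188212519-188212548, plus strand: gcctgcttctCCATATTTGGaaatgtttac
RSU1 on chr10:16817474-16817503, minus strand: gagctgttctCCTAATATGGgtagggtcgg
ACTN1 on chr14:68977718-68977747, minus strand: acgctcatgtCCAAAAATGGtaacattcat
TGFB1I1 on chr16:31473144-31473173, plus strand: tggaggggagCCAAATTTGGcttgggtgaa
FLNA on chrX:154374709-154374738, minus strand: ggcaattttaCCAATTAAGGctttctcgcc

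The first NS control flask stood apart in a way that touches these genes. The deviation of each gene from its mean over the 6 samples was set against the GC content of its transcripts. In NS control replicate 1 the correlation was 0.48 across 13577 genes and 0.67 across the 37 adhesion genes, so GC-rich genes read high there. In NS control replicate 3 it was −0.23 and −0.48, and in the other 4 samples it lay between −0.23 and 0.05 over all genes and between −0.22 and −0.10 over the 37. Genes within a sample are not independent replicates, so these values carry no test. The 4 genes that fell had 48.1% to 61.4% GC with a median of 55.4%, as compared with 51.8% for the other 33 and 49.2% for all tested genes, and median lengths of 10034, 7771 and 4323 bases. The flasks also spread more in NS control, where the median SD of log2 values over the 37 genes was 0.124 against 0.0630 in BCL9 KD samples, and was the larger for 31 of 37 genes (83.8%, against 68.5% of all genes).

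After each sample was corrected for transcript GC content, the 4 genes still passed and the median of the 37 estimates was −0.07 rather than −0.11. RAPGEF1 (log2 fold change −0.31) and FERMT2 (−0.50) passed as well, which made 6 genes when 5.03% of all genes were called lower, and 28 of 37 estimates were below 0. The estimates of VASP, BCAR1, ACTN1 and ZYX then lay slightly above 0, between 0.01 and 0.04, so for these 4 genes no direction can be given. With NS control replicate 1 left out, 5 genes passed, which were the same 4 and FERMT2 (−0.51), when 2.24% of all genes were called lower, and 29 of 37 estimates were below 0.

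**Figure D4:**
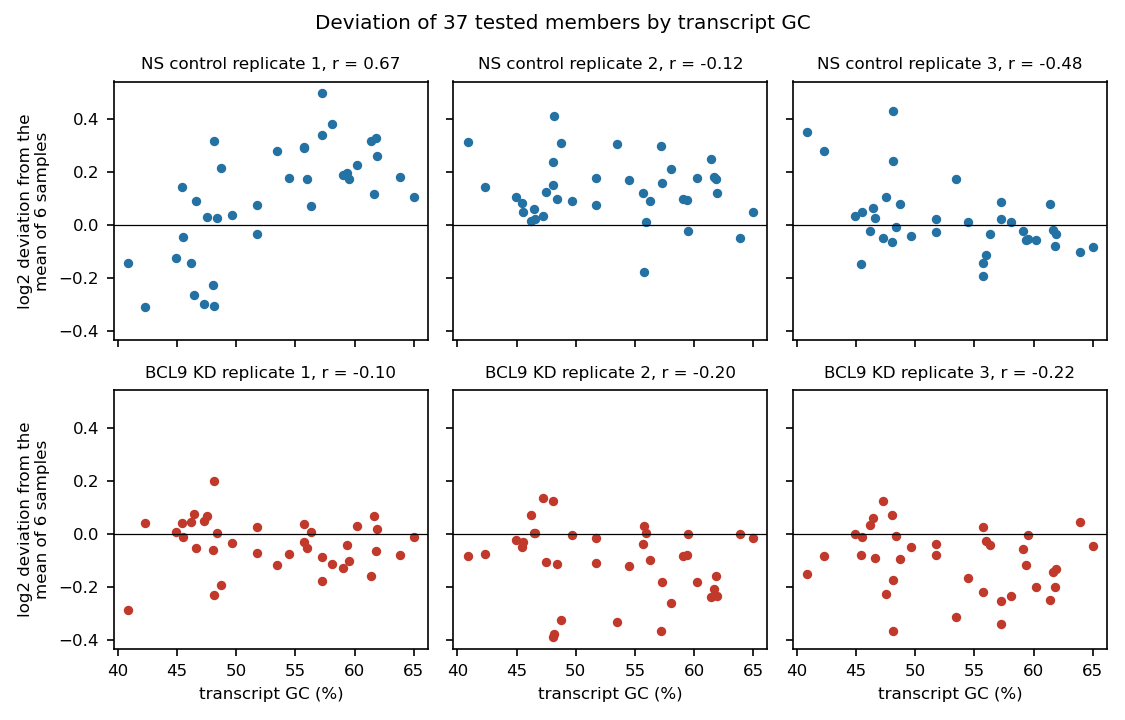
Deviation of the log2 value of each of the 37 tested genes from its mean over the 6 samples (vertical axis) against the GC content of its transcripts in percent (horizontal axis), 1 panel per sample. The points rise with GC in NS control replicate 1 (r = 0.67) and fall with it in NS control replicate 3 (r = −0.48).

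Which genes passed depended on the flasks in the fit. The direction of the 4 changes could not turn when a flask was left out. Every BCL9 KD value of these genes lay below every NS control value, so only the sizes are informative. Across the 6 fits that each left out 1 flask, the log2 fold change stayed between −0.69 and −0.60 for VCL, −0.69 and −0.49 for TLN1, −0.58 and −0.47 for TLN2 and −0.50 and −0.38 for FBLIM1. Without NS control replicate 2, BCL9 KD replicate 2 or BCL9 KD replicate 3, 0 of the 37 genes passed the limma test. In these fits 0.0291%, 0.0435% and 0.0218% of all genes were called lower. An unadjusted p under 0.05 was reached by 8, 7 and 7 of the 37 genes. Over all genes tested it was reached by 2609 of 13750, 2410 of 13783 and 2330 of 13764. The adjusted p of VCL was then 0.081, 0.098 and 0.103, and those of TLN1, TLN2 and FBLIM1 lay between 0.138 and 0.183. Without BCL9 KD replicate 1, FBLIM1 also missed the threshold (adjusted p = 0.0532), which left 3 genes when 2.12% of all were called lower. Without NS control replicate 3, 8 of the 37 genes passed, with GIT1, RAPGEF1, TNS3 and TNS4 added, when 5.89% of all genes were called lower. VCL was the only gene of the list to pass when no filter on low values was used (0.234% of all genes were called lower) or when limma was run without its trend (1.09% were called lower), and likewise with the GC correction and the replicate number as a block (0.349%). With that block alone 0 genes of the list passed the limma test, and 0.00% of all genes were called lower. An unadjusted p under 0.05 was then reached by 10 of the 37 genes and by 3235 of all 13745. With voom on the recovered reads, 6 genes passed, the same 4 with RAPGEF1 (−0.43) and NEDD9 (−0.54), when 5.01% of all genes were called lower.

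**Figure D5:**
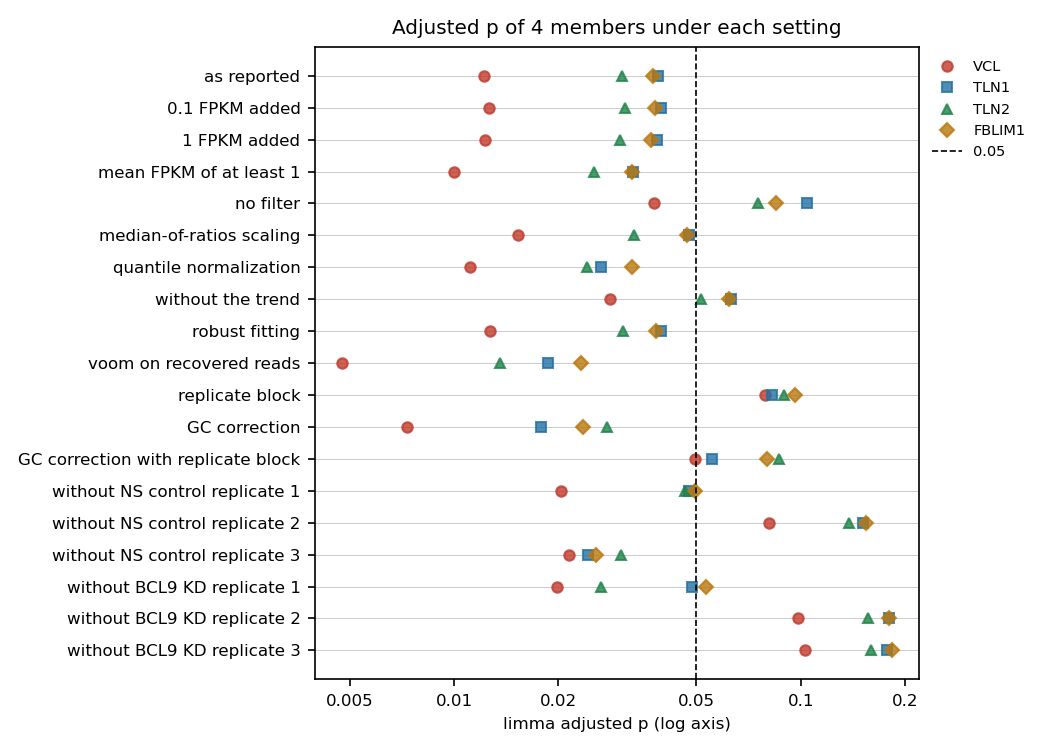
Limma adjusted p (log axis) of VCL, TLN1, TLN2 and FBLIM1 under the reported setting and 18 alternatives, with the threshold of 0.05 dashed. All 4 genes pass to the left of the line under most changes of scale or filter, and all 4 lie to the right of it with the replicate block and without NS control replicate 2, BCL9 KD replicate 2 or BCL9 KD replicate 3.

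Other genes that act at the adhesion were counted in the same fit. Among 30 signalling enzymes of adhesions, 29 were tested, with 1 lower, 1 higher and a median of −0.01, when 2.91% of all genes were lower and 2.96% higher. SRC, the kinase that phosphorylates FAK, CAS and paxillin, had 11.7, 9.77 and 9.92 FPKM in NS control and 6.52, 6.56 and 6.66 FPKM in BCL9 KD samples (log2 fold change −0.63, limma adjusted p = 0.0187). RASA1, the RAS inhibitor p120RasGAP, rose from 10.6, 15.6 and 19.2 FPKM to 35.7, 29.7 and 32.7 FPKM (log2 fold change 1.12, limma adjusted p = 0.0328). The control flasks of RASA1 differed more among themselves than the knockdown flasks did. The changes of SRC and RASA1 missed the threshold without NS control replicate 2, BCL9 KD replicate 2 or BCL9 KD replicate 3, and that of RASA1 also without BCL9 KD replicate 1. Both changes also missed it with no filter on low values and with the replicate block, alone or with the GC correction. That of RASA1 missed it without the trend as well.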

How the data were processed

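RNA of 3 NS control and 3 BCL9 KD flasks was sequenced from NEBNext Ultra libraries, a kit that does not mark strand. Per the submitters' processing notes and the methods, the authors used CASAVA, STAR and HTSeq 0.6.1 with hg38, and deposited FPKM for 58676 genes. The strand setting and annotation release are not given in the sources used here. The deposited table also lists, in other units, gene length and position. FPKM times length gave whole reads for 100% of values within 0.1 reads, which gave the depth of each sample. Replicates had Pearson correlations of 0.964 to 0.987.

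Samples were grouped by their labels, and none was left out. BCL9 KD minus NS control was tested with limma 3.58.1 (R 4.3.3), empirical Bayes with a trend, on log2(FPKM + 0.5) for genes whose mean reached 0.5 FPKM, with Benjamini-Hochberg adjustment over all 13745 genes and a threshold of 0.05. The count test of the study was not used on the deposited FPKM, and voom on the recovered reads was an alternative. The added 0.5 makes the fold changes of low genes smaller than their FPKM ratios. Single values were compared by exact permutation. Other steps ran in Python 3.11 with pandas 2.3.3, numpy 2.4.6, matplotlib 3.10.9 and scipy 1.17.1, and the fit was tested on simulated data.

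The adhesion genes and the other lists were chosen with earlier results of these data known. Values were given in full for BCL9, genes passing the test, the most abundant tested gene of each role group, the 3 with the next lowest adjusted p, genes below the filter, and up to 4 passing genes of each other list. Some results of the other lists are not reported here. The remaining genes shown with values were added after their values were seen. Transcript GC content and shared exons came from the GENCODE v44 annotation on GRCh37, with no coordinates used, and GC was known for 98.8% of tested genes. Promoters came from RefSeq on GRCh38.p14, and TNS4, PTK2B, FERMT1, PARVA and PTK2 had none. Alternatives were 0.1 or 1 FPKM added, a minimum mean of 1 FPKM or no filter, median-of-ratios or quantile scaling, no trend, robust fitting, voom on recovered reads, the replicate number as a block, a loess GC correction (span 0.3) with and without that block, and leaving out each flask.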

Additional observations from a re-analysis of the deposited data

How the results depend on the processing

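Against 807 genes called, 142 were called with no filter, 332 without the trend, 1403 with voom, 1607 with the GC correction and 5 to 1729 with a flask left out. Of the 37 adhesion genes, 1 was called (VCL) with no filter or without the trend, and 0 to 8 with a flask left out. With the replicate block, limma called 0 genes, with 3235 at an unadjusted p under 0.05, 10 of them adhesion genes, of which 0 were called. The replicate block together with the GC correction gave 154 genes, of which 1 was an adhesion gene (VCL). BCL9 had a log2 fold change of −0.99 with an adjusted p of 0.0656 under the replicate block, and −1.06 to −0.95 with a flask left out, with an adjusted p of 0.0145 to 0.07. It missed the threshold without NS control replicate 2 (0.0636), BCL9 KD replicate 2 (0.0589) or BCL9 KD replicate 3 (0.07). The replicate numbers are only shared numbers, since same-numbered samples did not deviate together (correlations of −0.147 to −0.00287, mean −0.0795). The median of the adhesion genes was −0.17 with quantile normalization, when that of all genes moved from 0.04 to −0.01.

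Signs changed only for genes that did not pass. With a flask left out, those that passed could not change sign, because their groups did not overlap. The GC correction, with or without the replicate block, put VASP at 0.026, BCAR1 at 0.0063, ACTN1 at 0.031 and ZYX at 0.043. PARVB was at −0.0086 with median-of-ratios scaling and −0.053 with quantile normalization. With a flask left out, estimates ran from −0.112 to 0.0018 for VASP, −0.142 to 0.0026 for FERMT1, −0.066 to 0.169 for PARVB, −0.017 to 0.146 for LIMS1, −0.076 to 0.039 for DOCK1, −0.120 to 0.024 for ACTN1, −0.080 to 0.063 for ZYX and −0.252 to 0.042 for ENAH. The cause was not tested. Read counts without molecular identifiers carry more error than counting alone.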
